A study of Mus musculus with 3 samples.

Results

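This account covers 9 genes of coagulation and fibrinolysis, chosen by name out of the 32285 genes counted: Vwf, F8, F3, Tfpi, Thbd, Procr, Plat, Plau and Plaur. They were followed in endothelial cells of mouse lungs after an injection of melanoma cells into the tail vein, by single-cell RNA sequencing of 3 libraries. All libraries came from adult male C57BL/6 mice labelled as wild type, and all cells were released with collagenase and sorted as Pecam1+ Ptprc- cells, that is, as cells with the endothelial surface protein CD31 and without the leukocyte protein CD45. The control library was made 6 h after an injection of 100 µl PBS. The second library was made 6 h, and the third 30 h, after an injection of 200000 B16-F10 cells, a mouse melanoma line. According to the labels the cells of 2 mice went into each treatment, a number on which the sources differ and which was not settled here, and the 6 h library also held sorted melanoma cells. A PBS library at 30 h was not analysed here, so the time after injection and the melanoma cells cannot be told apart in the 30 h comparison.

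As background, the endothelium sets the balance of clotting in the blood. Von Willebrand factor, the product of Vwf, tethers platelets to the vessel wall and carries coagulation factor VIII, the product of F8. Tissue factor (F3) starts coagulation when blood meets cells outside the vessel, and tissue factor pathway inhibitor (Tfpi) restrains that start. Thrombomodulin (Thbd) binds thrombin and, with the endothelial protein C receptor (Procr), turns it towards the activation of protein C, which shuts coagulation down. Fibrin is dissolved by plasmin, which is made from plasminogen by tissue plasminogen activator (Plat) and by urokinase (Plau). Urokinase is held at the cell surface by its receptor (Plaur). The lung endothelium itself is made up of general capillary cells (gCap), aerocytes (aCap), which lie against the air spaces, arteries, veins and lymphatic vessels (LEC).

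The 9 genes lie on 7 chromosomes of the GRCm38 assembly. Vwf (ENSMUSG00000001930) spans chr6:125546774-125686679 on the plus strand with up to 52 exons in a transcript, and F8 (ENSMUSG00000031196) spans chrX:75172715-75382615 on the minus strand with up to 26. An exon of F8 overlaps Fundc2, which is read from the opposite strand. F3 (ENSMUSG00000028128) is at chr3:121723537-121735048 on the plus strand. Tfpi (ENSMUSG00000027082, chr2:84432855-84476775) and Thbd (ENSMUSG00000074743, chr2:148404466-148408188) are on the minus strand of the same chromosome, which also carries Procr on the plus strand (ENSMUSG00000027611, chr2:155751117-155755471). Thbd has a single exon. Plat (ENSMUSG00000031538, chr8:22757727-22782844), Plau (ENSMUSG00000021822, chr14:20836660-20843385) and Plaur (ENSMUSG00000046223, chr7:24462484-24475968) are on plus strands.

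Sequence before the start of the gene is shown for Procr and Plaur, members that were past 1.5-fold upward in endothelial barcodes with Csf2 UMIs at 6 h and had a matched window. Procr met the level filter of that comparison, given below, only through its level in those barcodes. RefSeq windows of GRCm38.p6 were matched for 5 of the 9 members (F3, F8, Plaur, Procr and Tfpi), with 6 windows because Tfpi has a pair of starts. In both sequences the capitals mark the motif TGANTCA, which the AP-1 family of transcription factors is known to bind.
Plaur, chr7:24462233-24462482, plus strand, 250 bases up to the start: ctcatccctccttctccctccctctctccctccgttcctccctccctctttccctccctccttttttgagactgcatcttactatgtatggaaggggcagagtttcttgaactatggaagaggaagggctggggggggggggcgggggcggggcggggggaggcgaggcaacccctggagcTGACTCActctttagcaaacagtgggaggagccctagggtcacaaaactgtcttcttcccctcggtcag
Procr, chr2:155750967-155751116, plus strand, 150 bases that end 100 bases before the RefSeq start: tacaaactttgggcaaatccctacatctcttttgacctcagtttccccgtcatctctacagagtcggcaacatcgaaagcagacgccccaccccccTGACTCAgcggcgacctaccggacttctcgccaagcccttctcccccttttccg
TGANTCA occurred once in the 250 bases before the RefSeq start of Plaur and once in those of Procr, and 2 times in those of F3, and not in those of F8 and Tfpi, while 6.75% of 32851 RefSeq windows of the same length held it. The F8 window (chrX:75380042-75380291) lay inside the F8 span given above, and all 250 of its bases were in annotated exons. It is thus not sequence before the annotated start of F8. The same windows were searched on both strands for 5 other motifs. TTCNNNGAA and a kappaB motif were in no member window, against 7.02% and 3.90% of all windows. CACCC was in the windows of Procr, F3 and Tfpi (52.01% of all windows), GGGCGG in those of Plaur, F3 and Tfpi (32.7%), and TATAAA in a single Tfpi window (12.4%). A match is a description of these letters only.

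A barcode, the tag shared by the reads of a droplet, was taken as endothelial with 1000 to 5000 detected genes, under 20% mitochondrial UMIs (unique molecular identifiers, each standing for an RNA molecule caught) and at least 2 UMIs of Pecam1 and Cdh5 together. That left 11231 barcodes of the control, 10583 of the 6 h and 9278 of the 30 h library, with medians of 7782, 8033 and 8676 UMIs. Levels are given as CPM, the gene's UMIs scaled to a fixed total of UMIs summed over the barcodes. The bracketed or stated 95% intervals are exact Poisson or binomial intervals and cover counting error only. Each group was a single library, so no test was possible and a ratio compares libraries rather than conditions. UMIs were counted near the 3′ ends of transcripts, so levels are compared between cells but not between genes. Any 2 of the libraries shared 42 to 79 barcodes. The share of RNA in endothelial barcodes that came from free RNA, estimated from the red cell and epithelial genes in empty droplets, was 5.76% in the control, 6.66% at 6 h and 9.80% at 30 h. At 30 h the estimate exceeded the Vwf level counted in aCap and LEC barcodes, as given below, so it can be too high. RNA of other cells moved with the libraries too. The summed level of the 4 red cell genes in endothelial barcodes was 3243, 2115 and 827 CPM, that of the 10 leukocyte genes 94.4, 140 and 75.4, and that of the 8 melanoma genes 23.5, 40.5 and 20.7. All 15 immediate early genes were higher at 6 h than in the control (median log2 ratio 0.59), as were all 10 heat shock genes (0.97), while 2 of 15 and 5 of 10 were higher at 30 h. The part of these differences in the ratios that follow was not tested.

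Classes were gated on marker UMIs, with no member among the markers, and Csf2-positive barcodes were kept apart from them. The gates gave 6614, 6410 and 4901 gCap-gated barcodes in the control, 6 h and 30 h libraries, 1487, 1197 and 1404 aCap-gated, 238, 198 and 277 artery-gated, 673, 481 and 521 vein-gated and 71, 54 and 55 LEC-gated, and left 2140, 2135 and 2117 in no class. Of 5 markers per class held out of the gates, 5 were highest in their own class in every library for aCap, 4 for vein and LEC and 3 for artery. For gCap, 2 to 3 of 5 were, so the gCap gate had less backing from held-out markers than the others.

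Over all endothelial barcodes, 5 of the 9 members reached a mean of 5 CPM over the libraries: Thbd, Vwf, Plaur, Tfpi and Plat. No member of these differed by more than 1.5-fold between 6 h and control, where 3.42% of the 10175 genes at that level did, and none between 30 h and control, where 9.86% did. Plat was lower at 30 h than at 6 h by more than 1.5-fold, as 1 of 5 members beside 10.5% of all genes. The median log2 ratio of the 5 was -0.11 for 6 h against control, where the median of all genes was -0.01, and 0.27 for 30 h against control, where that of all genes was -0.07. F8 and Plau, with means of 4.57 and 4.88 CPM, lay just below the limit of 5 CPM, and Procr and F3 further below it.

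Within the classes the members past 1.5-fold were few and mostly at 30 h. In gCap, with 5 members at a mean of 5 CPM, Plaur was higher at 6 h than in the control (3.68% of 9973 genes were past the limit), Vwf lower at 30 h than in the control (10.3%) and Plat lower at 30 h than at 6 h (10.5%). In aCap, with 6 members, none was past the limit at 6 h (3.22% of 9866 genes). At 30 h Thbd and Plau were higher and Vwf, at a level below its free RNA estimate, lower than in the control (14.4%), and Thbd and Plau were higher and Plat lower than at 6 h (14.8%). In artery 0 of 6 members were past it at 6 h (13.4% of 10240 genes), 2 at 30 h, with Plaur higher and F8 lower (21.3%), and 0 between 30 h and 6 h (19.5%), and the F8 call rested on 15 and 11 UMIs. In vein 0 of 6 were past it at 6 h (7.11% of 10204 genes), and Plat was lower at 30 h than in the control (12.7%) and at 6 h (12.8%). The LEC-gated sums were small, and 4, 3 and 3 of 8 members were past the limit in the 3 comparisons beside 32.2%, 33.1% and 35.9% of 10537 genes, shares near that background. They were F8 and Procr upward and Plat and Vwf downward at 6 h, Plau and Tfpi upward and Vwf downward at 30 h, and Plat upward and Procr and Vwf downward between 30 h and 6 h.

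**Figure D1:**
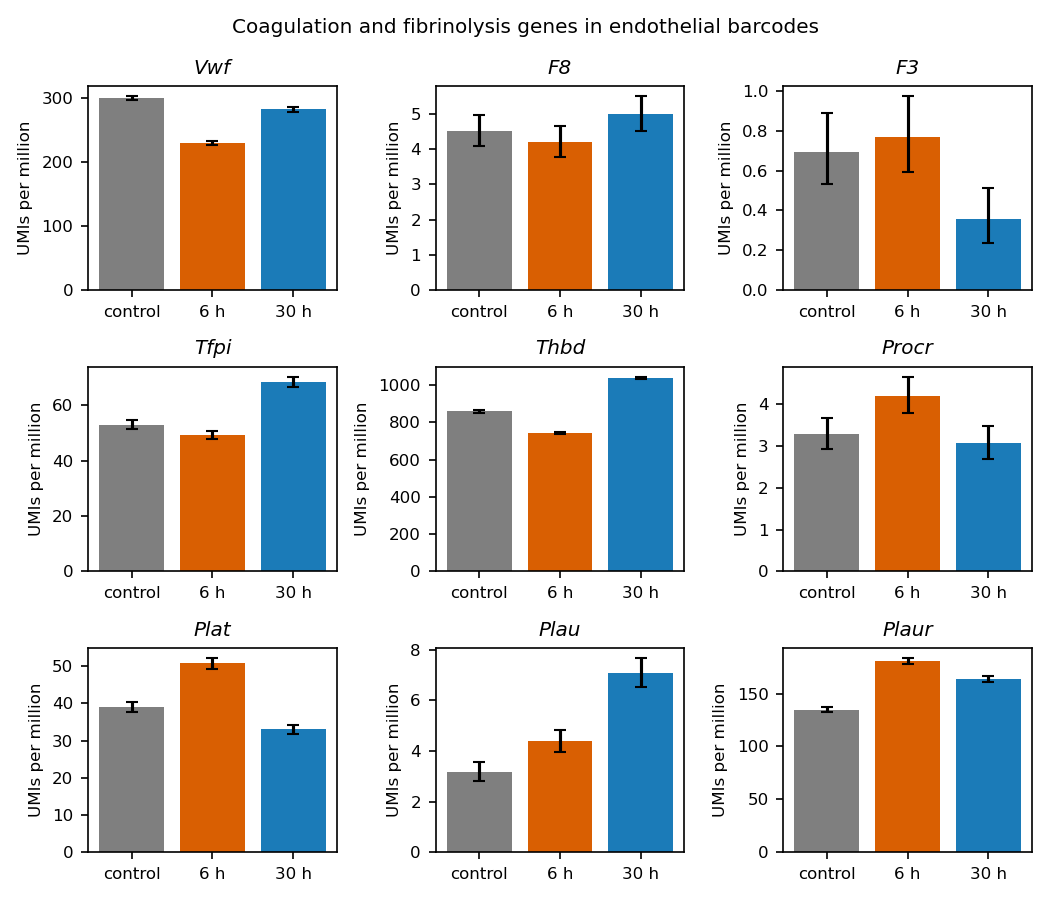
Level of each of the 9 members in all endothelial barcodes of the control, 6 h and 30 h libraries, shown as bars in CPM (UMIs per fixed total) from 0, with 1 panel per gene and its own axis; the whiskers are exact 95% Poisson intervals. Plau runs from 3.18 to 4.39 to 7.08 CPM, while Plat is highest at 6 h (50.7 CPM) and Thbd lowest there (743 CPM).

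Vwf was above all a gene of the vein-gated and artery-gated barcodes. In vein-gated barcodes its level was 2327 CPM in the control, 2163 at 6 h and 2579 at 30 h, and in artery-gated barcodes 878, 814 and 1061. In gCap-gated barcodes it was 92.7, 79.8 and 55.4 CPM. The ranges of these classes did not overlap, and the order of vein, artery and gCap was the same in each library. In aCap-gated barcodes Vwf stood at 26.6, 22.1 and 16.5 CPM, and free RNA alone was estimated to give 12.2, 10.2 and 22.4 CPM. The 30 h level lies below its estimate, so no difference at 30 h is read from the aCap values. LEC-gated barcodes held 17, 3 and 1 Vwf UMIs.

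Between libraries the class levels of Vwf went different ways at 30 h. In vein-gated barcodes the level at 30 h was 1.11 times that of the control (95% interval 1.08 to 1.13) and in artery-gated barcodes 1.21 times (1.14 to 1.28). In gCap-gated barcodes it was 0.598 times (0.568 to 0.629), past 1.5-fold downward. With each barcode given to the class of its most marker UMIs instead, the log2 ratio in gCap was -0.43 in place of -0.74 and no longer past 1.5-fold, and that in artery was 0.06 in place of 0.27. At 6 h Vwf was lower in vein (0.929), artery (0.928) and gCap (0.861). The level over all endothelial barcodes was 299 CPM in the control, 230 at 6 h and 282 at 30 h. The 6 h ratio of 0.767 (0.753 to 0.781) became 0.897 with the class mix of the control library, in which vein-gated barcodes were 5.99% of all against 4.55% at 6 h.

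F8, whose product circulates bound to von Willebrand factor, had its high level in other cells than Vwf. In LEC-gated barcodes its control level was 248 CPM (95% interval 210 to 291), with 430 CPM (371 to 496) at 6 h and 322 CPM (276 to 373) at 30 h. In the other classes it lay between 1.39 and 6.97 CPM in every library. The 54 to 71 LEC-gated barcodes of a library, 0.510% to 0.632% of the endothelial barcodes, held 36.1% of all endothelial F8 UMIs in the control, 50.95% at 6 h and 43.0% at 30 h. The F8 level in LEC-gated barcodes was 1.73 times the control at 6 h (1.39 to 2.17) and 1.30 times at 30 h (1.04 to 1.63). In gCap-gated barcodes it was 2.72, 1.67 and 2.04 CPM, or 0.613 times the control at 6 h (0.462 to 0.808). Without gating, F8 was at 4.51, 4.202 and 4.99 CPM, with the intervals of the control overlapping those of both other libraries. Strand use in the counting was not given in the sources used here, so any reads of Fundc2 at the shared exon cannot be told apart. That exon lies at the 5′ end of F8 and the overlap at the 5′ end of Fundc2, while UMIs were counted near 3′ ends. A processed pseudogene on the same strand, Gm8522, lies within the F8 span outside its exons and was not among the genes counted. Whether its reads add to F8 was not tested.

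F3, the trigger of coagulation, was at background in endothelial barcodes. Its level was 0.693 CPM in the control (63 UMIs), 0.767 at 6 h (67 UMIs) and 0.356 at 30 h (29 UMIs). Free RNA alone was estimated to give 0.59, 0.96 and 0.30 CPM, from only 9, 10 and 8 UMIs in empty droplets. The share of endothelial barcodes with an F3 UMI was 0.51%, 0.57% and 0.25%, below the 5.69%, 11.02% and 7.45% among the 123, 118 and 94 barcodes without any Pecam1 or Cdh5 UMI. No class passed 2.2 CPM, and LEC-gated barcodes held no F3 UMI, which at their depth allows levels of up to 6.18, 8.49 and 6.78 CPM (upper 95% bounds). The ratio of 0.513 between 30 h and control is therefore not read as a difference in endothelial expression. Barcodes with markers of several other cells held the gene at higher levels. In the 36, 17 and 12 barcodes with pericyte markers F3 stood at 101, 147 and 11.01 CPM, the last from 1 UMI, and in the 17, 14 and 7 with smooth muscle markers at 168, 209 and 30.0 CPM, the last from 2 UMIs. Barcodes with fibroblast markers stood at 56.9, 107 and 18.4 CPM, those with epithelial markers at 34.4, 31.4 and 32.2, and those with platelet markers at 85.6, 42.2 and 0 from 5, 4 and 0 UMIs.

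Tfpi, the inhibitor of the tissue factor pathway, was found in every class. Its level in the control was 50.4 CPM in gCap-gated barcodes, 66.6 in aCap, 58.3 in vein, 62.0 in LEC and 35.3 in artery, which was lowest in every library. At 6 h these levels were 46.9, 64.3, 51.97, 71.3 and 32.3 CPM and at 30 h 68.3, 73.1, 72.9, 99.3 and 46.3. Each class was higher at 30 h than in the control, from 1.10 times in aCap (1.01 to 1.19) to 1.60 in LEC (1.03 to 2.50), and only the interval in artery (1.31, 0.978 to 1.77) reached 1. In all endothelial barcodes together Tfpi was at 52.99, 49.1 and 68.4 CPM, that is 0.926 times the control at 6 h and 1.29 times at 30 h (1.24 to 1.34), under the 1.5-fold limit. The share of barcodes with a Tfpi UMI, after each was thinned to 2000 UMIs, was 10.1%, 9.26% and 12.2%, against 3.96%, 5.94% and 1.15% of the 101, 101 and 87 thinned barcodes without Pecam1 and Cdh5 UMIs.

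Thbd, the thrombin-binding switch to anticoagulation, was found in most endothelial cells. After thinning, 74.2% of endothelial barcodes in the control, 68.2% at 6 h and 77.6% at 30 h held a Thbd UMI. Without thinning the shares were 92.9%, 89.5% and 92.9%, against 35.8%, 36.4% and 37.2% of barcodes without Pecam1 and Cdh5 UMIs. Vein-gated barcodes had the highest level, with 1148, 1053 and 1471 CPM, followed in the control by gCap (902 CPM), aCap (682), artery (548) and LEC (318). At 6 h Thbd was lower than in the control in all 5 classes, by 0.867 to 0.929 times, and in LEC the interval of the ratio (0.721 to 1.15) included 1.

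At 30 h the aCap-gated barcodes changed place in that order. Their Thbd level was 682 CPM in the control, 633 at 6 h and 1115 at 30 h, above the 1009 CPM of gCap at 30 h. The ratio to the control was 1.64 (95% interval 1.60 to 1.68). In gCap the Thbd ratio was 1.12 (1.10 to 1.13), in vein 1.28, in artery 1.13 and in LEC 0.768 (0.611 to 0.964). Without gating, Thbd stood at 859, 743 and 1038 CPM.

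Procr, which presents protein C to the thrombin-thrombomodulin complex, was a gene of few cells. Its level was 24.8 CPM in vein-gated barcodes of the control, 21.6 at 6 h and 23.8 at 30 h, with overlapping intervals, and vein-gated barcodes held 58.7%, 30.0% and 54.0% of its endothelial UMIs. LEC-gated barcodes stood at 26.8, 50.6 and 29.4 CPM from 16 to 22 UMIs, and their order against vein at 30 h and in the control cannot be told from intervals that overlap. In gCap-gated barcodes Procr was at 0.874 CPM in the control, 1.71 at 6 h and 0.638 at 30 h, and the 6 h ratio was 1.95 (1.34 to 2.87). Free RNA was estimated to give 0.13, 0.29 and 0.63 CPM, from only 2, 3 and 17 UMIs in empty droplets. The Procr level without gating was 3.28, 4.202 and 3.07 CPM from 298, 367 and 250 UMIs. The 6 h level was 1.28 times that of the control (1.10 to 1.498). Without Csf2-positive barcodes it was 1.11 times (3.60 against 3.24 CPM), and 1.25 times with the class mix of the control library as well. Procr stood at 66.0 CPM (37.0 to 109, 15 UMIs) in the 31 barcodes with at least 4 melanoma markers, which were found in the 6 h library alone, and the part of melanoma RNA in the 6 h level was not tested. Of all endothelial Procr UMIs at 6 h, 24.0% were in gCap-gated barcodes, against 14.8% in the control, and 15.3% in barcodes positive for Csf2.

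**Figure D2:**
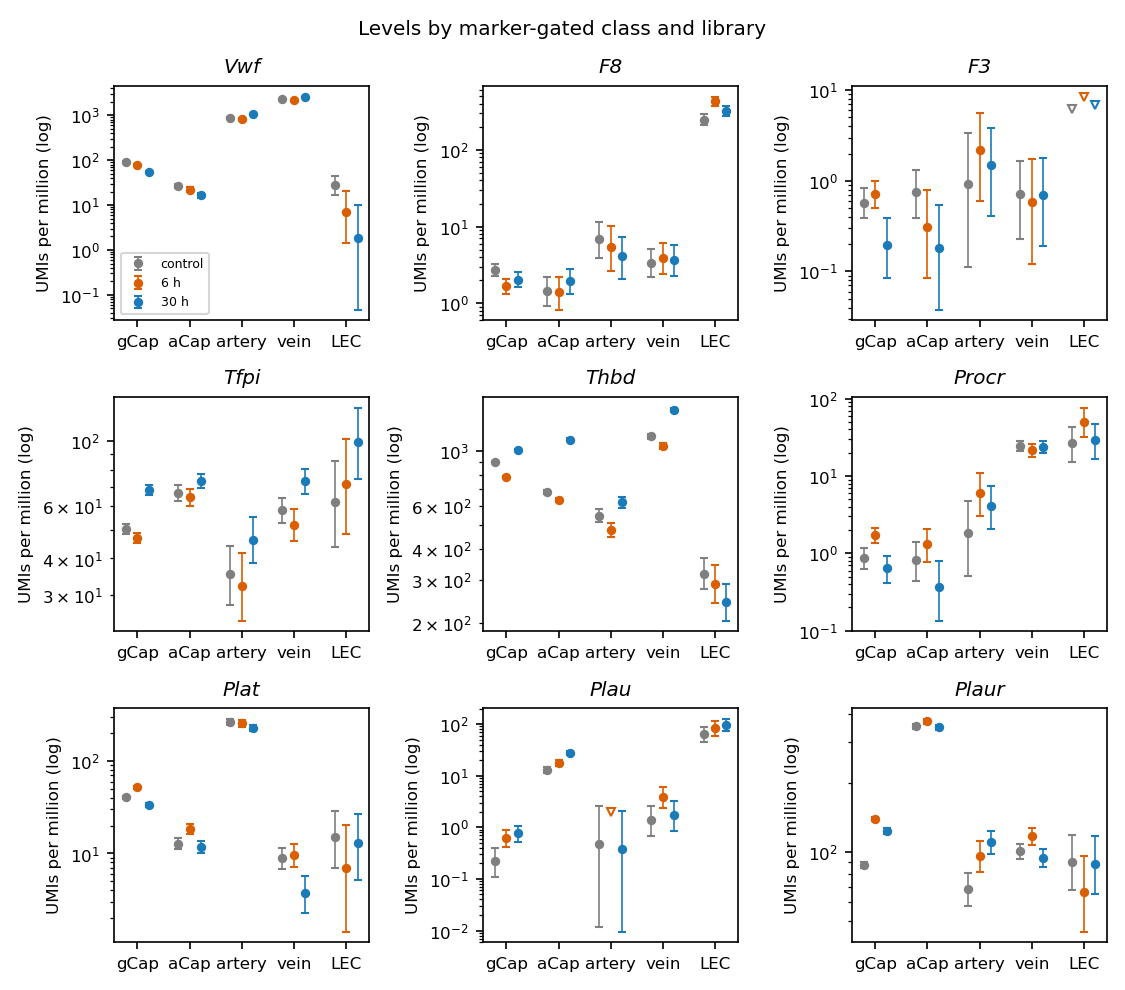
Level of each member (CPM, log axis) in gCap-, aCap-, artery-, vein- and LEC-gated barcodes of the 3 libraries, with exact 95% Poisson intervals; open triangles mark the upper bound where no UMI was counted. Vwf is highest in vein, Plat in artery, F8 and Plau in LEC, and Plaur in aCap in each library.

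Plat, which makes plasmin within the bloodstream, had its highest level in arteries. Its level in artery-gated barcodes was 264 CPM in the control, 255 at 6 h and 227 at 30 h. The gCap-gated barcodes followed with 40.3, 51.9 and 33.5 CPM, and aCap had 12.8, 18.5 and 11.8. Vein-gated barcodes had 8.92, 9.61 and 3.71 CPM, and free RNA was estimated to give 2.76, 3.74 and 4.79. At 6 h Plat was higher than in the control in gCap (1.29 times, 1.21 to 1.36) and in aCap (1.44 times, 1.19 to 1.75), while the ratio in artery was 0.964 (0.851 to 1.09). At 30 h all classes stood below the control, from 0.415 times in vein (0.241 to 0.690) to 0.925 in aCap (0.756 to 1.13). The vein-gated level at 30 h was no higher than the free RNA estimate, which can be too high in that library.

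Over all endothelial barcodes Plat was at 39.1 CPM (37.8 to 40.4), 50.7 (49.2 to 52.2) and 33.0 (31.8 to 34.3). The 3 intervals did not overlap. The ratio of 30 h to 6 h was 0.651 (0.621 to 0.684), close to the limit of 1.5-fold downward. Settings that moved it slightly, such as leaving out barcodes with RNA of other cells (log2 ratio -0.51 in place of -0.62), put it on the other side of the limit.

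Plau, which encodes urokinase, was a gene of aCap-gated and LEC-gated barcodes. In aCap-gated barcodes it stood at 13.1 CPM (11.4 to 15.0) in the control, 17.4 CPM (15.2 to 19.8) at 6 h and 27.4 CPM (24.9 to 30.0) at 30 h. The intervals did not overlap, and the 30 h level was 2.08 times that of the control (1.76 to 2.47). LEC-gated barcodes had 63.7, 85.1 and 97.4 CPM from 38, 37 and 53 UMIs, with a 30 h ratio of 1.53 (0.990 to 2.39). In gCap-gated barcodes Plau was at 0.218 CPM, 0.620 (0.424 to 0.875) and 0.761 (0.517 to 1.08) from 11, 32 and 31 UMIs, or 2.84 (1.39 to 6.24) and 3.48 (1.70 to 7.68) times the control. Free RNA was estimated to give 0.39, 0.29 and 0.67 CPM, from only 6, 3 and 18 UMIs in empty droplets. The aCap-gated barcodes held 72.3% of all endothelial Plau UMIs in the control, 59.0% at 6 h and 77.6% at 30 h. Over all endothelial barcodes the level was 3.18, 4.39 and 7.08 CPM, with 1.38 times the control (1.18 to 1.61) at 6 h and 2.23 times (1.93 to 2.57) at 30 h. The class mix of the control library left the 30 h ratio at 2.04. Plau was not counted among the members past 1.5-fold because its mean was under 5 CPM.

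Plaur, the receptor that holds urokinase on the cell, had its highest level in aCap-gated barcodes, which held more Plau than gCap-gated ones but less than LEC-gated ones. In aCap-gated barcodes it was at 352 CPM in the control, 370 at 6 h and 348 at 30 h, which are 1.05 times (1.01 to 1.09) and 0.989 times (0.953 to 1.03) the control. In gCap-gated barcodes, by contrast, it went from 87.8 CPM to 139 at 6 h and 123 at 30 h. The gCap ratio at 6 h was 1.58 (1.52 to 1.64). At 30 h it was 1.40 (1.34 to 1.46). In artery-gated barcodes the levels were 68.3, 95.4 and 110 CPM, with a 30 h ratio of 1.61 (1.32 to 1.98). Vein had 101, 116 and 93.9 CPM, and LEC 90.5, 66.7 and 88.2 from 29 to 54 UMIs. Without gating, Plaur was at 135, 181 and 164 CPM, or 1.34 times the control at 6 h (1.31 to 1.37) and 1.21 times at 30 h (1.19 to 1.24), and the share of aCap in its UMIs went from 45.8% to 30.4% and 42.7%. After thinning, 17.8%, 21.9% and 22.1% of endothelial barcodes held a Plaur UMI. Among barcodes without Pecam1 and Cdh5 UMIs 10.9%, 23.8% and 9.20% did, so the 6 h share was not above theirs. Such barcodes can be other cells that hold Plaur, which stood at 385 CPM in control barcodes with leukocyte markers. Free RNA was estimated to give 7.10, 8.63 and 11.8 CPM of Plaur in endothelial barcodes.

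**Figure D3:**
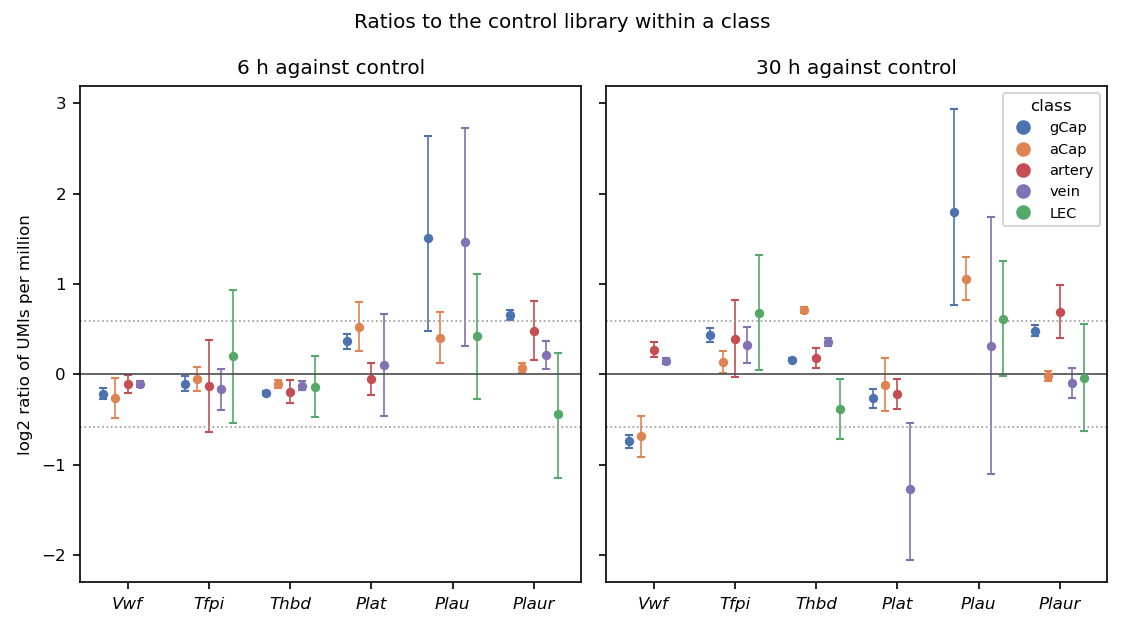
Log2 ratio of the level of Vwf, Tfpi, Thbd, Plat, Plau and Plaur at 6 h and at 30 h over the level in the control library, in each gated class with at least 10 UMIs in both libraries, with exact 95% intervals; the line at 0 marks no difference and the dotted lines 1.5-fold. At 30 h Thbd lies higher in aCap (0.71) than in the other classes, and Vwf lies below 0 in gCap (-0.74) but above it in artery (0.27).

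Beyond the 9 members, 52 other genes of coagulation and fibrinolysis were examined, of which 20 reached a mean of 5 CPM: 6 of 22 coagulation factors and their carriers, 6 of 14 inhibitors, 1 of 4 thrombin and protease receptors and 7 of 12 genes of fibrinolysis. Plasminogen (Plg) and protein C (Proc), the substrates of these members, were listed at a mean of at most 0.02 CPM, and factors V (F5) and X (F10) at 4.22 and 2.29 CPM. Protein S (Pros1), the cofactor of protein C, was at 128, 139 and 110 CPM. Anxa2 and S100a10, which form a plasminogen-binding pair, stood at 233, 309 and 320 and at 393, 454 and 376 CPM. The thrombin receptor gene F2r was at 24.3, 23.6 and 29.2 CPM, the plasminogen receptor gene Plgrkt at 57.9, 53.6 and 60.6, and the protease inhibitor gene Serpine2 at 7.85, 7.74 and 8.12. The median log2 ratio of the 20 genes was -0.03, 0.05 and 0.09 for 6 h against control, 30 h against control and 30 h against 6 h.

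At 30 h, 3 of 20 passed 1.5-fold against the control, beside 9.86% of all genes. Vkorc1, which recycles the vitamin K needed for several clotting factors, was higher (39.6 to 65.6 CPM, 1.66 times). Hs3st1, which makes the heparan sulfate that antithrombin binds, was lower (234 to 123 CPM, 0.527 times), as was Stxbp5, a regulator of vesicle release (84.8 to 52.6 CPM, 0.621 times). Between 6 h and 30 h 4 of 20 passed it beside 10.5% of all genes, among them Vkorc1 upward and Hs3st1 and Thbs1 downward, Thbs1 with 23.5 CPM at 6 h and 15.4 at 30 h (0.655 times). The Thbs1 call was lost with at least 5 UMIs of Pecam1 and Cdh5, without barcodes holding RNA of other cells, with free RNA subtracted, with size factors, without mitochondrial and ribosomal RNA in the total, with the mean over barcodes and at 2-fold.

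Endothelial barcodes with at least 1 UMI of Csf2, the gene of the cytokine GM-CSF, were taken apart. There were 8 in the control, 108 at 6 h (1.02% of endothelial barcodes) and 3 at 30 h. The 8 of the control held epithelial genes at a summed 90086 CPM and were not compared. Those at 6 h had a median of 9354 UMIs, and by the gates 48 were gCap, 6 aCap, 5 vein, 2 artery and 47 in no class. Their Pecam1 and Cdh5 level was 2657 CPM, against 2720 in the 10475 Csf2-negative endothelial barcodes of the same library. The lists of other cells stood at 487 and 1155 CPM for epithelium, 59.0 and 141.1 for leukocytes, 0 and 0.058 for mast cells or basophils, 293 and 210 for platelets and 34.0 and 40.5 for melanoma. Free Csf2 RNA was also present, at 24.5 CPM in empty droplets (17 UMIs), against 9.42 CPM of Csf2 in endothelial barcodes. Free RNA was estimated to give 1.63 CPM of the latter. Any or all of the 60 barcodes with a single Csf2 UMI can therefore hold free RNA, and their number was not settled.

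In these barcodes the receptors of protein C and of urokinase were high and thrombomodulin was low. Procr stood at 56.0 CPM in Csf2-positive and 3.60 in Csf2-negative barcodes, a ratio of 15.5 (95% interval 11.5 to 20.7). Plaur stood at 552 and 177 CPM (3.12, 2.86 to 3.40), Plat at 152 and 49.6 (3.07, 2.59 to 3.60) and Plau at 15.0 and 4.26 (3.52, 1.95 to 5.88). Thbd stood at 441 and 746 CPM (0.591, 0.537 to 0.649). These made 5 of 8 members past 1.5-fold, 4 upward and 1 downward, where 12.8% of 10052 genes were past it upward and 20.6% downward. Procr, Plau and F8 were under 5 CPM in Csf2-negative barcodes and reached the mean of 5 CPM only through Csf2-positive ones. The upward calls of Procr and Plau are therefore not independent of the filter. Tfpi (44.0 and 49.1 CPM), Vwf (205 and 230) and F8 (6.00 and 4.18) were not past it, Vwf only with 1 barcode that held many of its UMIs, and F3 had 2 UMIs. The share of barcodes with a Procr UMI was 17.6% against 2.34%, with a Plaur UMI 72.2% against 46.2%, with a Plat UMI 39.8% against 20.7%, and with a Thbd UMI 56.5% against 89.8%.

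The same members stood further apart in barcodes with more Csf2. In the 60 barcodes with 1 Csf2 UMI and the 48 with 2 or more, whose median depths were 9271 and 9609 UMIs, Procr was at 18.5 and 100 CPM, Plaur at 387 and 746, Plat at 61.1 and 259 and Plau at 7.40 and 23.9. Thbd was at 692 and 146 CPM, Tfpi at 53.7 and 32.6 and Vwf at 231 and 174. With 1 Csf2 UMI the intervals of Thbd (624 to 766), Plat (42.0 to 85.7) and Plau (2.02 to 18.9) included the Csf2-negative levels. So did those of Tfpi and Vwf, while those of Procr (8.87 to 34.0) and Plaur (336 to 443) lay above the Csf2-negative levels. With 2 or more Csf2 UMIs the ratios to Csf2-negative barcodes were 27.8 for Procr, 4.22 for Plaur, 5.22 for Plat and 0.195 for Thbd. Among gCap-gated barcodes alone (48 against 6410) Procr stood at 52.2 and 1.71 CPM (30.6, 18.8 to 48.2), Plaur at 555 and 139 (4.002) and Plat at 119 and 51.9 (2.29), while Thbd at 524 and 783 was 0.669 times and so just inside the limit.

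The high levels were not set by a single barcode. The 56 Procr UMIs were spread over 19 barcodes, of which 1 held 14, and without that barcode the ratio was 11.8 (8.33 to 16.3). Plaur UMIs were in 78 of the 108 barcodes, the 19 with Procr among them, and Plat UMIs in 43, of which 33 also held Plaur. For Plaur and Plat, without the barcode with the most UMIs, the ratios were 2.91 and 2.57. Of the 205 Vwf UMIs 65 were in a single barcode. Without it the Vwf ratio was 0.614 (0.516 to 0.724) in place of 0.891, which is past 1.5-fold downward. That would make 6 of 8 members past the limit, with Procr and Plau again admitted only through their Csf2-positive level. The share of all genes past it without top barcodes is not given here, so this count is not read as a result about the members. Without barcodes that held any leukocyte or mast cell UMI, 74 against 7404 remained, with ratios of 17.6 for Procr, 3.46 for Plaur, 3.18 for Plat and 0.570 for Thbd. After thinning to 2000 UMIs, 49 barcodes still held a Csf2 UMI, and the ratios were 4.05 for Plaur, 3.66 for Plat, 0.396 for Thbd and, from 3 UMIs, 7.91 (1.60 to 24.0) for Procr. Vwf was then at 0.384 (0.166 to 0.758), past 1.5-fold downward, and Tfpi at 1.65 (0.711 to 3.27), past it upward, while with at least 2 Csf2 UMIs Tfpi was past it downward at 0.664 (0.371 to 1.10). Both Tfpi intervals included 1. F2r stood at 50.97 CPM in Csf2-positive barcodes against 23.2 (2.19) and Pros1 at 85.0 against 140 (0.608). Here too 20 other genes of the pathway reached a mean of 5 CPM, with F5 in place of Lrp1 (5.22 and 3.22 CPM). Of these 11 passed 1.5-fold, 4 upward and 7 downward, beside the 12.8% and 20.6% of all genes given above (33.4% in either direction). Among the downward calls Mmrn1 rested on 2 Csf2-positive UMIs, Serping1 on 4 and Serpine2 on 5. The intervals of Serping1 (0.118 to 1.11) and Serpine2 (0.208 to 1.51) included 1. Beside these, 5 of the 15 immediate early genes and 6 of the 10 heat shock genes were higher in Csf2-positive barcodes.

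**Figure D4:**
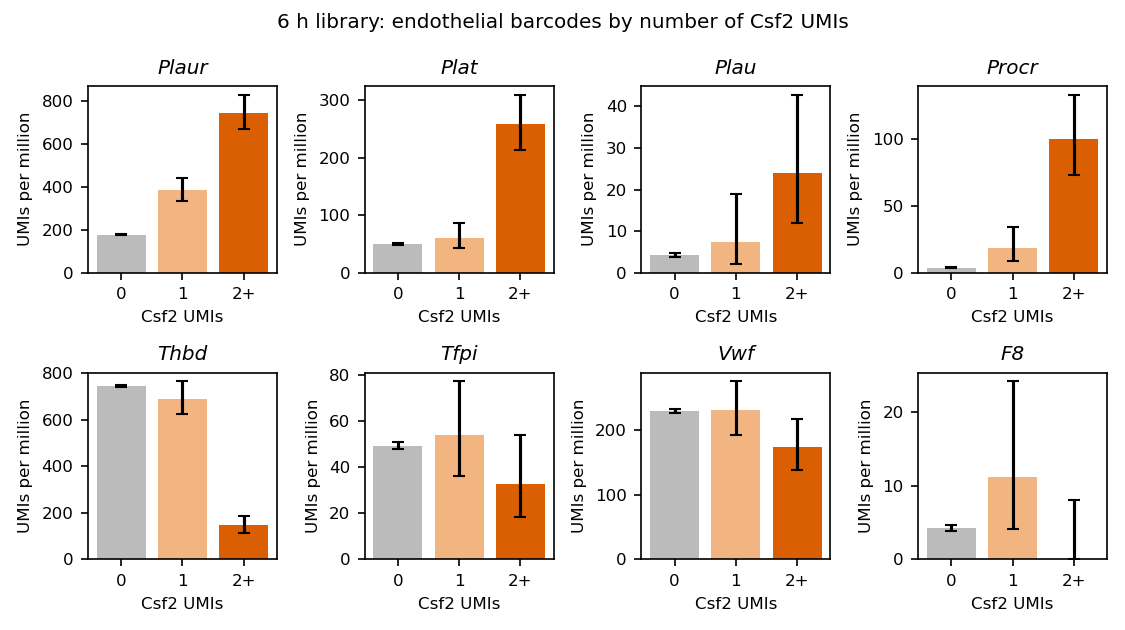
Level of the members other than F3 (bars in CPM from 0, an axis per gene) at 6 h in Csf2-negative endothelial barcodes (10475) and in those with 1 (60) and with 2 or more (48) Csf2 UMIs, with exact 95% Poisson intervals. Procr, Plat, Plau and Plaur are higher, and Thbd lower (746, 692 and 146 CPM), with more Csf2 UMIs. At 1 Csf2 UMI the intervals of Plat, Plau and Thbd include the Csf2-negative level.

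Capillary barcodes with a UMI of each of Pim3, Bcl3 and Tmem252, genes that the study uses for a reactive capillary state, were also set apart, a split chosen after the data were seen. Among gCap-gated barcodes there were 224 in the control, 728 at 6 h and 195 at 30 h. They were deeper than the rest, with medians of 9099, 9162 and 9774 UMIs against 7275, 7638 and 8137. Plaur in them stood at 109, 202 and 173 CPM, against 86.8, 129 and 120 in the remaining gCap-gated barcodes, which gave ratios of 1.26 (1.10 to 1.43), 1.57 (1.48 to 1.66) and 1.44 (1.29 to 1.61). Thbd was 0.9496, 0.910 and 0.957 times the rest, and Plat 0.889, 1.15 and 0.961 times. Tfpi was 1.19, 1.05 and 1.07 times the rest, with intervals that included 1, and Vwf 0.943, 0.966 and 0.806 times (0.644 to 0.998 at 30 h). Procr, F3, F8 and Plau had at most 15 UMIs each in these barcodes of a library, and the intervals of their ratios included 1.

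The genes whose pattern was most like that of each member were found over 15 sums, 1 per class and library, by Pearson correlation of log2(CPM + 1) among 10547 genes. The sums of a class share its cells and those of a library its depth, so these are descriptions. They were Samd5, Crispld1 and Gm6213 for Vwf (0.968 for Samd5), Asph, Rab11fip5 and Wdr17 for F8 (0.991 for Asph), and Anks1, Klf2 and Dok4 for Thbd (0.949 for Anks1). For Procr they were Mgat4a, Igfbp5 and Zfpm2 (0.982 for Mgat4a), for Plau Rspo3, Tnxb and Reep5 (0.980 for Rspo3), for Plaur Nectin3, Xpnpep2 and Ino80c (0.966 for Nectin3) and for Plat Gm35533, Adam23 and Arl15 (0.949 for Gm35533). For Tfpi they were Mrpl48, AI413582 and Pcdhb17 (0.923 for Mrpl48). For F3, at background throughout, they were Zfp704, Hmox2 and Slit2 (0.904 for Zfp704).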

How the data were processed

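The deposited files were unfiltered matrices of raw UMI counts per gene and barcode, which the authors made with Cell Ranger (version 7.2.0 in the headers and processing notes, which also name Seurat 4.4.0) on mm10. Strand use was not given in the sources used here. Gene positions came from GRCm38 annotation, promoters from RefSeq tables of GRCm38.p6.

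Barcodes with at least 300 genes were read, and the endothelial limits given above applied (1000 to 5000 genes, under 20% mitochondrial UMIs, at least 2 UMIs of Pecam1 and Cdh5). Doublets were not removed in the main values. Total UMIs over all barcodes were 140601123, 132566934 and 124085451 for control, 6 h and 30 h. The aCap, vein and LEC gates asked for 8 marker UMIs from 3 genes, the artery gate for 5, and gCap for 8 with at most 3 of each other list. Barcodes that met several gates had no class. The limits were set after the marker distributions were seen, and some markers come from lists that the study chose on data including these libraries. For other cells, a barcode with under 2 UMIs of Pecam1 and Cdh5 was taken with at least 5 UMIs of a list from 2 genes, and empty droplets held 10 to 100 UMIs.

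Levels were sums per library (CPM). Ratios carry exact conditional binomial intervals, levels exact Poisson intervals and shares Clopper-Pearson intervals, all at 95%. A difference between libraries was counted when past 1.5-fold at a mean of 5 CPM over the 3 libraries, also within a class. In the Csf2 comparison the mean was over Csf2-positive and Csf2-negative barcodes. Depth was matched by thinning to 2000 UMIs, which left out 195, 197 and 111 endothelial barcodes. The scripts were tested on simulated data. Python 3.11.15, numpy 2.4.6, scipy 1.17.1, pandas 2.3.3 and scanpy 1.11.5 were used. No column lacked a sample.

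All 9 members are named in each comparison of libraries over endothelial barcodes and by class and in that of Csf2-positive barcodes. Of the 52 other pathway genes, those past 1.5-fold over all endothelial barcodes are named, with a few partners of the members, except for an item that is not reported here. For each member the 3 most alike genes are named. The members, lists, motifs and gates were chosen with earlier results of these data known.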

Additional observations from a re-analysis of the deposited data

Results flagged for a closer look

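Differences between classes or times that went in opposite directions are given here as log2 ratios, and the difference itself was not tested since each group was 1 library. Between 30 h and control Thbd was at -0.38 in LEC-gated and 0.71 in aCap-gated barcodes. Between 6 h and control F8 was at -0.71 in gCap and 0.79 in LEC, and between 30 h and control at -0.42 and 0.38. Vwf at 30 h was at -0.74 in gCap and 0.27 in artery. Over all endothelial barcodes the 6 h and the 30 h ratios to the same control library had opposite signs for Thbd (-0.21 and 0.27), Plat (0.38 and -0.24) and Tfpi (-0.11 and 0.37).

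Outside the endothelial barcodes, 5 levels had at least 10 UMIs and a 95% counting interval wholly above that of the control library, where at least 10 barcodes carried the markers. Other levels were above the control with overlapping intervals, fewer UMIs or fewer control barcodes. Thbd stood at 258 CPM in barcodes with fibroblast markers at 30 h (control 136). Plaur stood at 179 CPM in barcodes with epithelial markers at 6 h (control 40.2) and at 184 CPM in those with red cell markers (control 73.8). Procr was at 18.3 CPM in red cell marker barcodes at 6 h (control 1.04). Vwf was at 269 CPM in red cell marker barcodes at 30 h (control 83.2), where only 10 such barcodes were found.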

How the results depend on the processing

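Of 295 member log2 ratios over endothelial barcodes recomputed under the alternatives, 246 stayed within the counting interval, 46 moved and 3 whose own interval excluded 0 changed sign. Most moved without barcodes holding RNA of other cells, where 11 of 27 stayed, 15 moved and 1 changed sign. Ratios whose interval included 0, such as F8 for 6 h against control (-0.10, and 0.11 with the class mix of the control), were not counted as changes of sign. F3 for 30 h against 6 h went from -1.11 to 0.36 with barcodes of at least 300 genes and no upper limit, F8 for 30 h against 6 h from 0.25 to -0.0053 with the class mix of the control, and Vwf for 30 h against control from -0.09 to 0.024 without barcodes holding RNA of other cells. Of 216 class ratios 189 stayed, 26 moved and 1 changed sign in the same sense: Vwf for 6 h against control in aCap, from -0.27 to 0.043 with the class of most marker UMIs. The members past 1.5-fold were 1 in place of 0 at 6 h with at least 300 genes, and 1 in place of 0 at 30 h with at least 300 genes, without doublets (Scrublet), without mitochondrial and ribosomal RNA in the total, or at a filter of 1 CPM, in each case Plau. For 30 h against 6 h they were 2 in place of 1 (Plat and Plau) with at least 300 genes, without those RNAs or at 1 CPM, and 0 without barcodes holding RNA of other cells, with size factors or at 2-fold. Without doublets the 1 was Plau, with Plat at -0.57. Leaving out barcodes with RNA of other cells removed 3955, 4605 and 3813 endothelial barcodes. It asked for at least 2 UMIs of the platelet, leukocyte, mast cell, pericyte, fibroblast, smooth muscle, mesothelium and melanoma lists together. The red cell and epithelial lists were not used in it. The mean level of Mmrn1, a marker of the LEC gate, went from 25.2 to 7.75 CPM, so barcodes with lymphatic marker RNA were removed as well. The pathway genes past the limit at 6 h were 2 in place of 1 with at least 300 genes, without barcodes holding RNA of other cells or with free RNA subtracted, 0 at 2-fold and 4 at 1 CPM. At 30 h they were 0 at 2-fold and 6 at 1 CPM in place of 3, and for 30 h against 6 h 0 and 8 in place of 4. Counts within 1.5 times the main count are not listed singly. They ran from 3 to 4 in both comparisons, with F2r added at 30 h without barcodes holding RNA of other cells, Serping1 with free RNA subtracted, and Anxa5 in place of Thbs1 between 30 h and 6 h with size factors. Between 30 h and 6 h Ggcx (1.52 times) and Mmrn1 (1.69 times) also came in without barcodes holding RNA of other cells, so an equal count can hold other genes. Of 29 ratios between Csf2-positive and Csf2-negative barcodes 11 stayed and 18 moved, with 6 of 6 moved under thinning to 2000 UMIs, 6 of 8 with gCap-gated barcodes only and 5 of 7 with at least 2 Csf2 UMIs. In Csf2-positive barcodes 3 members passed in place of 5 with gCap-gated barcodes only, 6 with at least 2 Csf2 UMIs and 7 after thinning, where Plau passed on 1 UMI. In each of these Procr, and Plau where it was counted, reached the mean of 5 CPM only through Csf2-positive barcodes. For none of the alternatives, those between libraries included, is the share of all genes past the limit given. The counts under them are therefore not read as results about these genes. The number of members whose endothelial share had an interval wholly above that of barcodes without Pecam1 and Cdh5 in every library was 1 thinned and 5 as counted. Of 55 values on shares, this number included, 2 stayed and 53 moved with barcodes as counted or thinned to 4000 UMIs. The shares therefore hold for their depth only. Except for the fewer barcodes or genes an alternative keeps by its construction, the cause was not tested. The class mix, the Csf2 split and the leaving out of top barcodes were chosen after seeing the data. No paired analysis was possible because each group had 1 library, and no replicate could be left out.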
